A study of Mus musculus with 16 samples.

Results

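Mouse embryonic stem cells (ESCs) carrying a full deletion of the Actb locus (locus deletion, LD), the gene of the cytoplasmic beta-actin, were compared with wild-type (WT) ESCs across the whole transcriptome. The members of the comparison were the genes of the ESC table with a mean value of at least 1 over its 6 libraries, 23054 of 23083 genes, of which 15025 were protein-coding. The series holds 16 libraries of total RNA in 8 groups of 2, from 3 cell types with 3 targeted genes, and was designed to ask whether a mutant gene alters the expression of other genes. Both locus deletion libraries were set against both wild-type libraries, and 2 libraries of ESCs with an Actb knockout (KO) entered the same fit and are given where they bear on a value. The labels name no strain, clone, medium or feeder layer and nothing shared by the groups beyond the cell type. Neither the bases removed nor the change made in the KO is given there. Whether a group's libraries are separate cultures is not stated, so the p-values rest on differences between libraries that could be technical.

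Beta-actin is among the most abundant proteins of the cell and assembles into the filaments of the cortex, of adhesions and of protrusions. Free actin monomer holds the MRTF coactivators in the cytoplasm, and when monomer is scarce they enter the nucleus and, with the serum response factor (SRF), switch on genes of the contractile and adhesive machinery. ESCs of the mouse are kept in a naive state by LIF, WNT and low ERK signalling, rely heavily on glycolysis, and contain rare cells that resemble the 2-cell embryo or later lineages, so that a bulk library averages over several cell states.

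In ESCs without the locus, 1196 of 23054 genes (5.19 percent) were called higher and 1384 (6 percent) lower than in wild type, at an adjusted p below 0.05 in limma across all genes tested. Of these, 443 and 725 differed by at least 2-fold. Both locus deletion libraries lay above both wild-type libraries for 24.7 percent of all genes and below them for 25 percent, and all 2580 called genes were among these. Among protein-coding genes the called shares were 7.01 percent higher and 8.24 percent lower, and the median log2 fold change over all genes was 0.0055. Values are normalised read counts, given for library 1 and then library 2 of a group, and each fold change is the difference of log2(value + 1), a scale that understates the change of low genes. The summed values were 16091225 and 16114027 in the locus deletion libraries, against 16072560 and 16022043 in wild type, with an estimated 16640000 and 15900000 against 13260000 and 18710000 reads on genes. A word such as rose or fell is used only of genes that were called. The number of calls depended on every library: it was 121 higher and 139 lower without LD library 1, 143 and 196 without LD library 2, 252 and 259 without KO library 1, 256 and 263 without KO library 2, 36 and 22 without WT library 1, and 29 and 20 without WT library 2. Many of the 222 called genes named in the text did not pass the threshold in these fits. For single genes these fits were read for LD against WT only, not for LD against KO. Their sign could not change there, because both LD libraries lay beyond both WT libraries for every called gene.

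The targeted gene was low in the LD libraries. Actb (ENSMUSG00000029580, GRCm38 chromosome 5, 142903115 to 142906754, minus strand) had 2372 and 2336 in LD, 23650 and 22707 in KO and 36364 and 34140 in WT (LD over WT, log2 fold change −3.90, adjusted p = 1.1e-06). All 3 genotypes were apart, and LD lay below KO (LD minus KO, log2 −3.30, adjusted p = 4.5e-06). Reads can be divided in an uncertain way between Actb and its near-identical pseudogenes, and the source of the reads counted to Actb in LD was not tested.

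The strongest change near the deletion was in the adjacent gene Fbxl18, which encodes an F-box protein that recruits substrates to a ubiquitin ligase. Fbxl18 (GRCm38 chromosome 5, 142866946 to 142895421) lies on the same strand as Actb and is the next gene in the direction of transcription, with its first annotated base 7.69 kb beyond the last of Actb. It had 3381 and 2756 in LD, against 429 and 491 in WT (log2 fold change 2.73, SE 0.132, adjusted p = 3.53e-05), a mean 6.67 times as high. In KO ESCs it stood at 564 and 589, which did not pass the test against wild type (log2 0.33, adjusted p = 0.21), and the difference between locus deletion and KO was itself called (log2 2.40, adjusted p = 0.000139). The intronic transcript D430018E03Rik, which lies inside Fbxl18 on the same strand, had 293 and 225 in LD against 39 and 51 in WT (log2 fold change 2.50, adjusted p = 0.000687). Reads of unspliced Fbxl18 RNA over this stretch cannot be told apart from those of D430018E03Rik. Against wild type, Fbxl18 and Actb kept the call with each library left out in turn, and D430018E03Rik did not.

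Within 1 Mb of Actb, 39 genes were tested, of which 6 rose and 2 fell, Actb included. Olfr718-ps1, an olfactory receptor pseudogene, was at 123 and 135 in LD, against 58 and 47 in WT (log2 1.29). Foxk1, a forkhead factor, was at 614 and 648 in LD against 408 and 403 in WT (log2 0.64). Tnrc18 and Zfp12 also rose (0.60 and 0.47), and Radil, an effector of RAP GTPases, fell (−0.96). In KO, Olfr718-ps1, Foxk1 and Tnrc18 were called above WT as well (log2 0.87, 0.65 and 0.72), and Radil below it (−0.94). Zfp12 was not called in KO against WT (log2 0.42, adjusted p = 0.0827). Fscn1, the filament bundler fascin, lies on the same side of Actb as Olfr718-ps1 and Zfp12. It was at 2256 and 1919 in LD against 2570 and 2520 in WT and was not called (adjusted p = 0.13). Rnf216, a ubiquitin ligase gene, was at 1631 and 1806 in LD against 1545 and 1517 in WT and was not called either (adjusted p = 0.345). Of the 39 genes, 4 differed between LD and KO, a comparison in which 2.32 percent of all genes were called higher and 2.56 percent lower. They were Actb, Fbxl18, D430018E03Rik and D130017N08Rik, the last at 2 and 2 in LD and 12 and 13 in KO. Of the calls of LD against WT given here, those of Actb and Fbxl18 held in all 6 fits with 1 library left out. The others were lost in at least 1. The calls between LD and KO were not examined with a library left out.

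**Figure D1:**
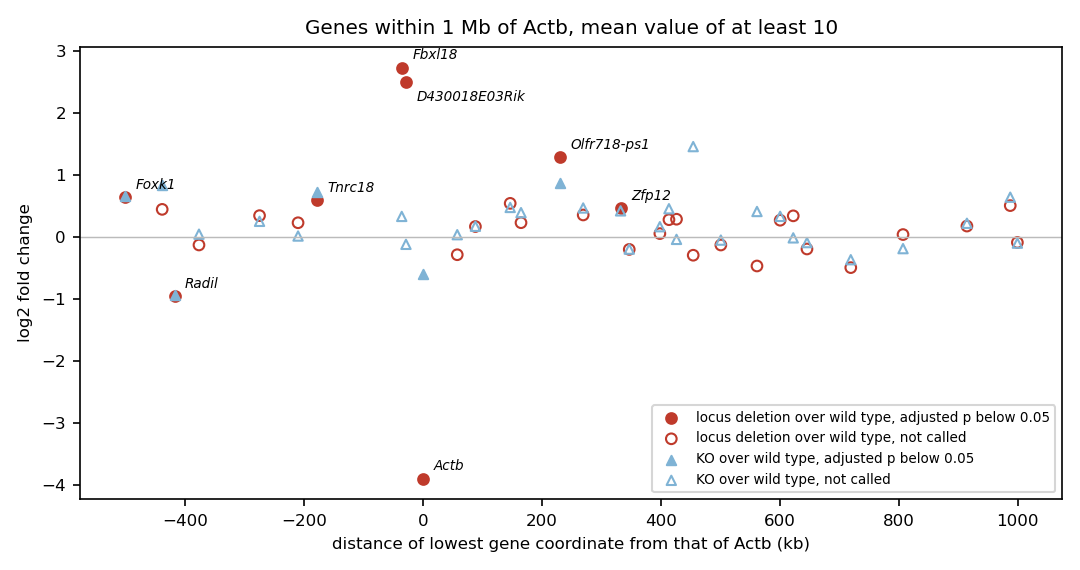
Log2 fold change over wild type (y axis) of genes within 1 Mb of Actb with a mean value of at least 10, against the distance of their lowest annotated coordinate from that of Actb in kb (x axis). Circles are the locus deletion and triangles the KO, filled where the adjusted p was below 0.05. Fbxl18 and D430018E03Rik stand at 2.73 and 2.50 in the locus deletion and near 0 in the KO.

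A second regional pattern covered a whole chromosome. Of 883 genes on chromosome 8 with a mean of at least 10, 245 (27.7 percent) were called lower and 13 (1.47 percent) higher, against 7.97 and 7.06 percent of all genes at that level. Their median log2 fold change was −0.41, a ratio of 0.751, while the medians of the other 19 chromosomes lay between −0.06 and 0.08. The genes of chromosome 8 took 3.87 and 3.95 percent of the nuclear sum in the locus deletion libraries, 4.13 and 4.24 percent in the KO libraries, and 5.22 and 5.41 percent in wild type. All 13 windows of 10 Mb along the chromosome, of 17 to 131 genes each, had a negative median (−0.68 to −0.25). The KO shared the shift (median −0.36 against wild type), and the median between locus deletion and KO was −0.07. Of the 52 runs of at least 3 neighbouring protein-coding genes called in the same direction, 20 were on chromosome 8, all lower, the longest of 7 genes. Counts for gene lists are therefore also given without chromosome 8 where they differ.

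**Figure D2:**
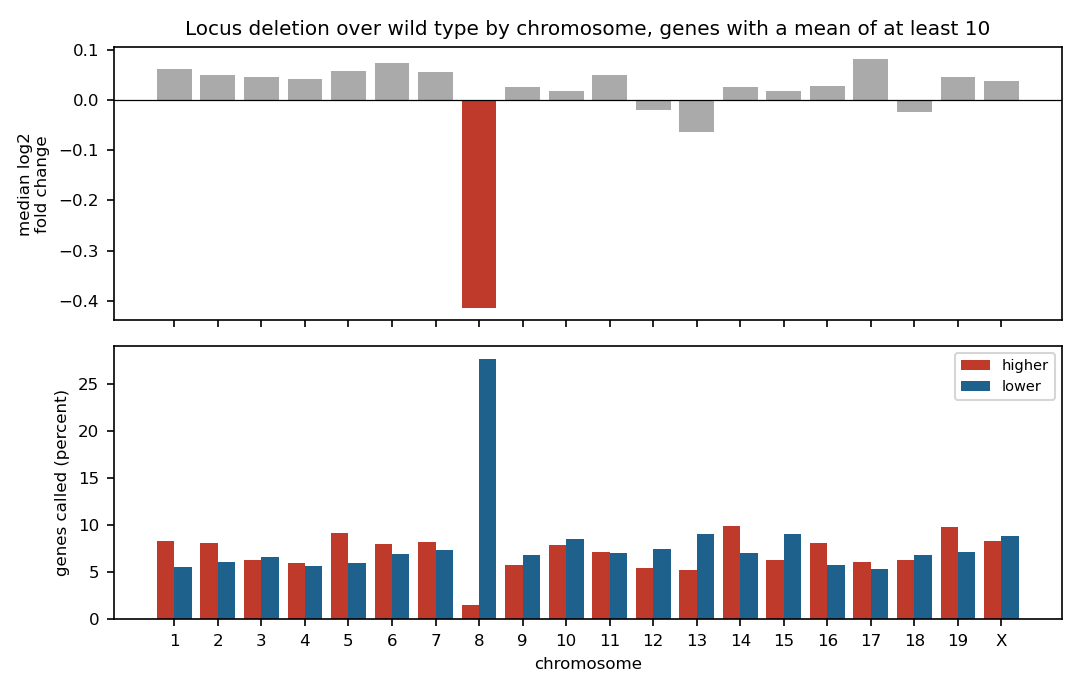
Median log2 fold change of locus deletion over wild type (upper bars) and percent of genes called higher or lower (lower bars) by chromosome, for genes with a mean of at least 10. Chromosome 8 has a median of −0.41 and 27.7 percent of its genes lower, while the other chromosomes have 5.37 to 9.07 percent lower.

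Outside chromosome 8 the runs, 18 higher and 14 lower, included several groups of related neighbours. The stearoyl-CoA desaturase genes Scd3, Scd2 and Scd1 on chromosome 19 fell together (median log2 −1.97), and so did 4 genes of the Zscan4 cluster on chromosome 7 (−2.90). Rhox5, Rhox6 and Rhox9 on the X chromosome rose together (5.88), as did the neurofilament genes Nefm and Nefl with their neighbour Dock5 (1.41). Rhox5 and Dock5 changed less than these medians, by log2 0.95 to 2.1 and 0.33 to 0.44 with 1 library left out. A run of 5 rising genes on chromosome 1 held Pnkd, Tmbim1, Catip, Slc11a1 and Ctdsp1 (1.24). Reads of the Scd, Zscan4 and Rhox copies may be split between members. Of the members named here, Scd1, Scd2, Rhox6 and Rhox9 kept the call with each library left out in turn, and the others did not.

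The largest rises among well expressed genes were in Rhox6 and Rhox9, X-linked homeobox genes of the placenta and germ line. Rhox6 had 637 and 881 in LD, against 7 and 5 in WT (log2 fold change 6.76, adjusted p = 1.32e-05). Rhox9 had 161 and 255 in LD against 2 and 3 in WT (log2 fold change 5.88, adjusted p = 7.02e-05). Both exceeded the KO, where Rhox6 was at 188 and 128 (LD minus KO, adjusted p = 0.0039). Lcp1, the plastin that bundles actin filaments in blood cells, followed with 1219 and 1136 in LD, against 29 and 29 in WT (log2 fold change 5.29, adjusted p = 1.58e-06), again above the KO at 218 and 249 (adjusted p = 0.000208). Dio3, which inactivates thyroid hormone, had 982 and 765 in LD against 41 and 35 in WT (log2 fold change 4.48, adjusted p = 1.01e-05). Itga1, an integrin subunit for collagen, had 105 and 122 in LD against 4 and 5 in WT (log2 fold change 4.38, adjusted p = 0.000118). None of these 5 genes overlapped between the groups, and the wild-type values were low throughout. Enox1, a cell surface oxidase, rose by 3.42 on the log2 scale and was not called between LD and KO (adjusted p = 0.356). On the same scale Palm2, a membrane-anchored paralemmin, rose by 2.95 and the chloride channel gene Ano1 by 2.93. Serpinb9b, a protease inhibitor with close copies, rose by 2.82, and the ubiquitin ligase gene Rnf128 by 2.81. Rhox6, Rhox9, Lcp1, Dio3, Itga1 and Enox1 kept the call with each library left out in turn, and the other calls given here did not (highest adjusted p = 0.0665).

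The largest falls were in genes of different kinds. Slfn9, a Schlafen gene with close copies, had 37 and 30 in LD, against 720 and 597 in WT (log2 fold change −4.26, adjusted p = 3.07e-05). It was at 53 and 45 in KO and was not called between LD and KO (adjusted p = 0.187). Evc and Evc2, adjacent genes whose products form a complex at the base of the cilium that relays hedgehog signals, fell together. Evc had 7 and 7 in LD against 153 and 130 in WT (log2 fold change −4.15, adjusted p = 6.34e-05), and Evc2 had 13 and 17 in LD against 263 and 216 in WT (log2 fold change −3.91, adjusted p = 6.11e-05). Both fell far below the KO, where Evc was at 94 and 111 and Evc2 at 151 and 146 (LD minus KO, adjusted p = 0.000208 and 0.000254). Ece1, an enzyme that matures endothelin, was below both other genotypes, at 24 and 31 in LD, 328 and 361 in KO and 293 and 341 in WT (log2 fold change −3.49, adjusted p = 5.46e-05, LD minus KO, log2 −3.61, adjusted p = 0.000107). Bhlhe40, a circadian and low-oxygen repressor, was at 27 and 22 in LD against 381 and 390 in WT (log2 fold change −3.93, adjusted p = 0.000121), close to the KO at 23 and 34. Igfbp4, which binds insulin-like growth factors, was at 17 and 18 in LD against 184 and 186 in WT (log2 fold change −3.33, adjusted p = 0.000356), close to the KO at 16 and 24. Further falls were Armcx2 (−2.91), the coatomer gene Copz2 (−2.79), the class I antigen H2-K1 (−2.71), which has close copies, and Zc3h6 (−2.59). The 2 libraries of each group did not overlap for any of them. Of these calls, Slfn9, Evc, Evc2 and Ece1 held in all 6 fits with 1 library left out, and the others were lost in at least 1 (highest adjusted p = 0.0785).

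**Figure D3:**
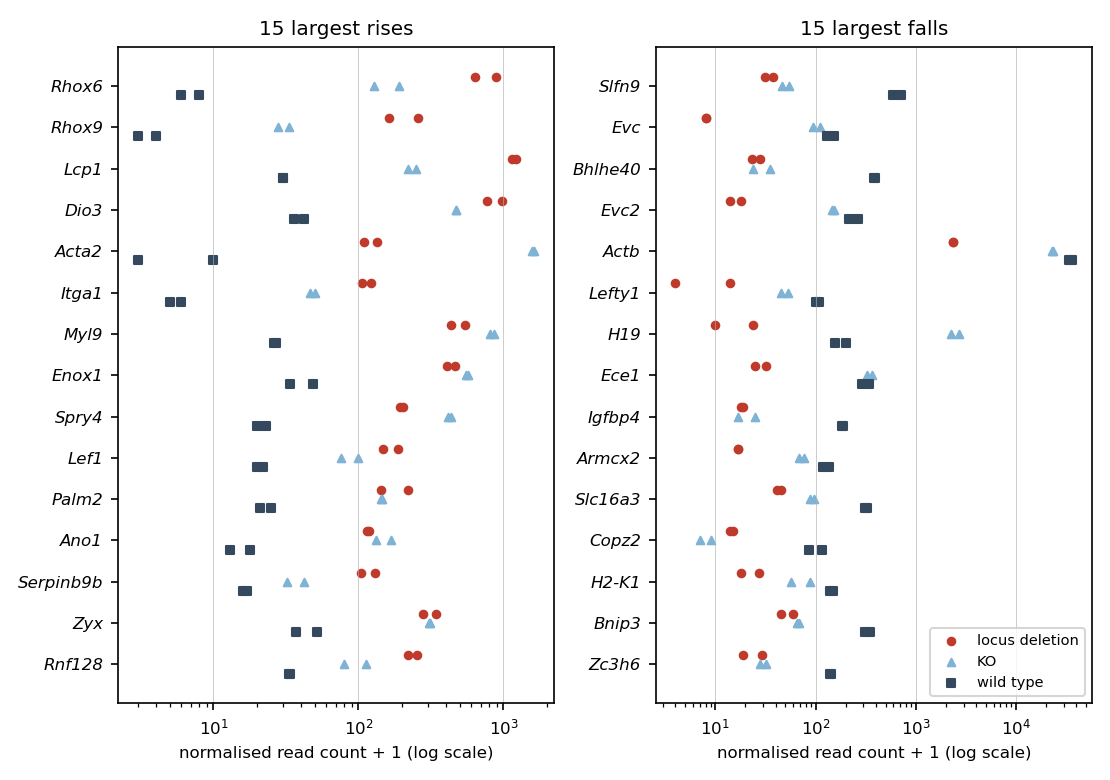
Normalised read count + 1 per library (x axis, log scale) of the 15 genes with the largest rise and the 15 with the largest fall that had a mean of at least 100 in the higher group. Circles are locus deletion, triangles KO and squares wild-type libraries. Evc, Evc2 and Ece1 lie lower in the locus deletion than in both other genotypes, while H19 lies below wild type in the locus deletion and above it in the KO.

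Of 115 gene lists and symbol families, 18 had at least 10 members tested and a called share in 1 direction of at least 5 times that of all genes. These shares are descriptions, since lists overlap and were chosen with earlier results of these data known. Protein-coding genes alone were called more often, 7.01 percent higher and 8.24 percent lower. At 5 times those shares the FGF, naive, SOX, H3K4 methylation and glutathione transferase lists (26.9 to 31.8 percent higher) would not pass. Nor would sterol uptake, amino acid stress and keratins (33.3 to 40.6 percent lower). The 8 that passed by falls belonged to sterol, fatty acid, glycolytic, low-oxygen and amino acid stress programmes, to the 2-cell-like state and to keratins. The 10 that passed by rises belonged to the actin and adhesion machinery, to WNT and FGF signalling, to pluripotency and the epiblast, to SOX factors, histone H3K4 methylation and glutathione transferases. A list in either set can hold members called the other way, and its counts are given with it.

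**Figure D4:**
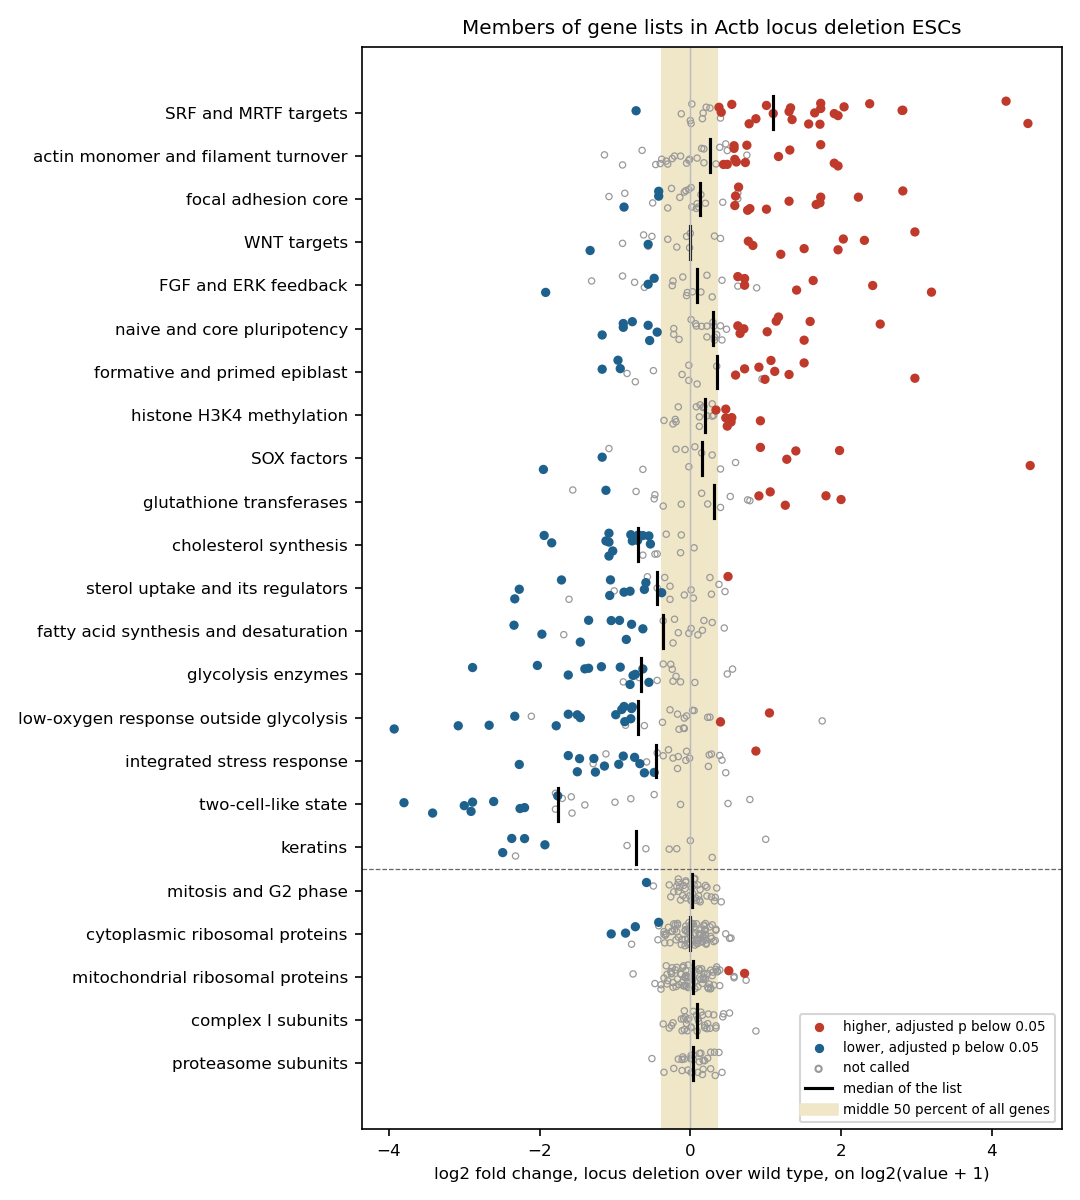
Log2 fold change of locus deletion over wild type (x axis) for every tested member of the 18 lists and, under the dashed line, of 5 families of basic functions. Filled points were called higher or lower, open points were not called, black bars are list medians and the shaded band holds the middle 50 percent of all genes. SRF and MRTF targets centre at 1.10, cholesterol synthesis at −0.69, and the families under the line near 0.

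Most targets of SRF and MRTF rose. Of 33 members tested of 37 listed, 23 rose and 1 fell (22 higher and 1 lower without chromosome 8). This was 69.7 percent higher against 5.19 percent of all genes, with a median log2 fold change of 1.10 beside 0.0055 over all genes. Acta2, the smooth muscle actin, had 109 and 134 in LD, against 2 and 9 in WT (log2 fold change 4.48, adjusted p = 0.00112), far below the KO at 1565 and 1631 (adjusted p = 0.00468). Myl9, a myosin light chain, had 433 and 541 in LD against 25 and 26 in WT (log2 fold change 4.19, adjusted p = 1.01e-05). It was below the KO at 808 and 862 (LD minus KO, adjusted p = 0.0261). Zyx, the adhesion protein zyxin, had 278 and 344 in LD against 36 and 51 in WT (log2 fold change 2.82, adjusted p = 0.000224), close to the KO at 305 and 310. The calponin gene Cnn2 was at 2236 and 1858 in LD against 291 and 289 in WT (log2 2.81). Flna, a filamin that crosslinks filaments, was at 28310 and 24887 in LD against 5182 and 5043 in WT (log2 2.38). The libraries of both groups stood apart for each of these genes. Fhl2, a cofactor with LIM domains, rose at a low level (16 and 27 in LD against 6 and 3 in WT). After leaving out any 1 library, 8 to 13 members were called higher and the median was 0.99 to 1.29. The call held with each library left out in turn for Myl9, Zyx, Cnn2 and Flna, and was lost in at least 1 such fit for the other genes given here (highest adjusted p = 0.182).

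Promoters of 2 leading members are shown because both hold a CArG box, the sequence that SRF binds, in the 250 bases before to 50 after the annotated start (RefSeq, GRCm38.p6). The 28 of 33 tested genes of the SRF and MRTF list that matched the table had 34 promoters, of which 26.5 percent held a CArG box on either strand, against 1.63 percent of 32851 promoters in the table. In the following lines the bases run from 5′ to 3′ on the gene's strand and capitals mark the box. The windows are chr2:156775214-156775513 (Myl9, plus strand) and chr10:79988350-79988649 (Cnn2, plus strand).
Myl9: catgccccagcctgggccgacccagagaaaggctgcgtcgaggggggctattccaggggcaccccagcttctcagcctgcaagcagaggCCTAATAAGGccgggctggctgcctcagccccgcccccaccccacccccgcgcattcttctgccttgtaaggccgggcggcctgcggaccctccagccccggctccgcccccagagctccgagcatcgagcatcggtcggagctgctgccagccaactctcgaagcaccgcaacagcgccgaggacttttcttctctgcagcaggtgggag
Cnn2: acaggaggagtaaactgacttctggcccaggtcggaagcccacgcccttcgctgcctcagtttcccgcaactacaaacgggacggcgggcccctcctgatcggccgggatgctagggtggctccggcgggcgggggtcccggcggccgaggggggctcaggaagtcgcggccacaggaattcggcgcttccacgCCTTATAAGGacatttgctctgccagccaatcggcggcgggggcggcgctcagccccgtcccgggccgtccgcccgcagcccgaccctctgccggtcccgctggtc
In the ternary complex factor targets of SRF, of which 4 of 26 rose and 3 fell, 22.2 percent of 27 promoters held a box as well. The genes of the SRF and MRTF list that were called and held a box were Cnn2, Fhl1, Fhl2, Myl9, Srf and Vcl. A match describes these letters and does not show that the factor is bound.

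Several genes of proteins that turn actin filaments over rose, and those that start filaments moved both ways. Of 36 genes of monomer and filament turnover 13 rose and 0 fell (median 0.26). Dstn, which severs filaments, was at 13399 and 13004 in LD, against 3670 and 3124 in WT (log2 fold change 1.96, adjusted p = 6.34e-05). Wdr1, its cofactor, was at 8354 and 7482 in LD against 2225 and 2537 in WT (log2 1.73). The monomer-binding thymosin Tmsb4x was at 1021 and 861 in LD against 359 and 392 in WT (log2 1.32). The monomer-recycling Cap1 and the profilin Pfn1 rose less (1.17 and 0.75). Lmod1, a nucleator of muscle filaments, rose as well and was at 64 and 118 in LD against 25 and 20 in WT. Among nucleators and their activators 6 of 38 rose and 5 fell (6 higher and 4 lower without chromosome 8). Formins, which start and extend straight filaments, went both ways: Fmnl1 (−1.32) and Fmn1 (−0.85) fell and Diaph2 (0.67) rose. Fhod3, another formin, was at 94 and 109 in LD against 278 and 243 in WT (log2 −1.35). Arpc5, a subunit of the branching complex ARP2/3, was at 1171 and 1073 in LD against 584 and 521 in WT (log2 1.02). After leaving out any 1 library, 2 to 6 turnover genes were called higher and 0 to 1 lower. Of these calls, Dstn and Wdr1 held in all 6 fits with 1 library left out, and the others were lost in at least 1 (highest adjusted p = 0.157).

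Crosslinkers and motors held both rising and falling members. Of 31 crosslinkers and bundlers 8 rose and 3 fell (8 higher and 2 lower without chromosome 8). Palld, a scaffold of stress fibres on chromosome 8, was at 369 and 446 in LD against 996 and 1083 in WT (log2 −1.35), and Ablim1 fell too (−0.98). Of 28 myosin genes 6 rose and 3 fell. Within non-muscle myosin II the heavy chains moved in opposite directions. Myh9 was at 9358 and 11364 in LD, against 5720 and 4070 in WT (log2 fold change 1.10, adjusted p = 0.00698). Myh14 was at 32 and 48 in LD, against 198 and 125 in WT (log2 fold change −1.98, adjusted p = 0.00605). The light chain genes Myl6 (0.90) and Myl12a (0.87) rose. Leaving out 1 library in turn ended each of these calls in at least 1 fit (highest adjusted p = 0.155).

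Core focal adhesion genes rose more often than they fell. Of 34 focal adhesion genes 12 rose and 3 fell (12 higher and 1 lower without chromosome 8), with a median of 0.12. Fermt3, the kindlin of blood cells that activates integrins, was at 387 and 478 in LD, against 87 and 95 in WT (log2 fold change 2.23, adjusted p = 0.000224). Lpp and Csrp1, LIM proteins of adhesions and filaments, rose as well. Lpp was at 1736 and 1639 in LD against 484 and 532 in WT (log2 1.73) and Csrp1 at 1812 and 1752 in LD against 571 and 508 in WT (log2 1.72). Vcl, vinculin, was at 3210 and 2965 in LD against 1235 and 1259 in WT (log2 1.31). Of 22 integrin subunits 3 rose and 3 fell (3 higher and 2 lower without chromosome 8). Beside Itga1, Itgb3, a subunit of the vitronectin receptor, was at 287 and 290 in LD against 96 and 94 in WT (log2 1.59). Itgal, a subunit of a leukocyte integrin, fell to 33 and 49 in LD against 122 and 144 in WT (log2 −1.70). The fibronectin receptor subunit Itga5 fell to 491 and 477 in LD against 756 and 827 in WT (log2 −0.71). Of 28 matrix genes 5 rose and 3 fell (5 higher and 1 lower without chromosome 8). Thbs1, thrombospondin, rose at a low level (27 and 21 in LD against 4 and 2 in WT), and Vcan, a large proteoglycan, at a higher one (2954 and 3048 in LD against 1518 and 1603 in WT, log2 0.94). The collagen IV genes Col4a1 (−1.34) and Col4a2 (−0.88), both on chromosome 8, were among those that fell. In the 6 fits that each lacked 1 library, 2 to 7 focal adhesion genes were called higher. Csrp1 and Itga1 kept the call with each library left out in turn, and the other calls given here did not (highest adjusted p = 0.126).

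Cell junction genes and keratins gave a further contrast. The cadherins of epithelium and of neural tissue moved apart. Cdh1, E-cadherin, was at 7104 and 6929 in LD, against 12186 and 11800 in WT (log2 fold change −0.77, adjusted p = 0.00178). Cdh2, N-cadherin, was at 327 and 367 in LD, against 133 and 191 in WT (log2 fold change 1.11, adjusted p = 0.0093). Cdh1 lies on chromosome 8, where the median shift was −0.41. Of 39 junction genes 6 rose and 3 fell (6 higher and 2 lower without chromosome 8), among the falling Cgn, cingulin of tight junctions (49 and 43 in LD against 230 and 110 in WT), and Pkp2, a desmosomal plakophilin (−0.92), and among the rising Jup (0.79) and F11r (0.75). Of 12 keratin genes 4 fell and 0 rose. Krt8 and Krt18, which pair in simple epithelium, had the highest levels of these: Krt8 was at 26 and 24 in LD against 105 and 92 in WT (log2 −1.93) and Krt18 at 15 and 15 in LD against 88 and 60 in WT (log2 −2.20). Krt19 (3 and 4 in LD against 41 and 14 in WT, log2 −2.49) and Krt17 (7 and 4 in LD against 40 and 25 in WT, log2 −2.37) fell further at lower levels. With any 1 library left out, 0 to 2 keratin genes were called lower. The neurofilament genes went the other way. Nefm was at 661 and 928 in LD, against 166 and 129 in WT (log2 fold change 2.41, adjusted p = 0.00038). Nefl was at 747 and 1103 in LD against 372 and 314 in WT (log2 fold change 1.41, adjusted p = 0.00291). None of these calls held in all 6 fits with 1 library left out (highest adjusted p = 0.319).

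Most genes of cholesterol synthesis fell, from the mevalonate branch to the last step. Cholesterol is built from acetyl-CoA through mevalonate and squalene, and its synthesis and uptake are driven by the SREBP factors when membranes run low in sterol. Of 21 synthesis genes 14 fell and 0 rose (median −0.69), 12 of them outside chromosome 8. Idi1, an isomerase of the mevalonate branch, had 212 and 120 in LD against 387 and 294 in WT (log2 −1.07). Lss, which closes the sterol rings, had 282 and 191 in LD against 539 and 450 in WT (log2 −1.08). The largest falls of the list were in late enzymes. Dhcr7, which completes cholesterol, was at 109 and 150 in LD, against 452 and 542 in WT (log2 fold change −1.94, adjusted p = 0.0012). Msmo1, a methyl oxidase on chromosome 8, was at 1145 and 997 in LD against 3534 and 4165 in WT (log2 fold change −1.84, adjusted p = 0.000149). The demethylase Cyp51 was at 869 and 845 in LD against 1977 and 1766 in WT (log2 fold change −1.12, adjusted p = 0.000825). In each of these the wild-type libraries were both higher. Of 25 genes of uptake and control 10 fell and 1 rose (1 higher and 8 lower without chromosome 8). The lipoprotein receptor gene Vldlr was at 24 and 19 in LD against 102 and 112 in WT (log2 −2.27). Lpl, a lipase gene on chromosome 8, was at 171 and 171 in LD against 590 and 532 in WT (log2 −1.71). Insig1, which retains SREBP in the endoplasmic reticulum, was at 470 and 485 in LD against 930 and 1087 in WT (log2 −1.07). The carrier Stard4 (−1.06) and Srebf1, which encodes SREBP1 (−0.88), also fell. Abcg1, an exporter of cholesterol that is driven by LXR and not by SREBP, fell too (19 and 22 in LD against 110 and 104 in WT, log2 −2.33). With any 1 library left out, 1 to 5 synthesis and 1 to 6 uptake genes were called lower, with medians of −0.74 to −0.58 and −0.60 to −0.36. The call held with each library left out in turn for Msmo1 and Lpl, and was lost in at least 1 such fit for the other genes given here (highest adjusted p = 0.262).

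The promoter of Dhcr7, the synthesis gene with the largest fall, is shown with its CCAAT boxes (letters CCAAT on either strand), which bind the NF-Y factor that assists SREBP. Of 19 promoters of the cholesterol list (16 of 21 genes matched), 78.9 percent held such a box, against 37.4 percent of all promoters, and the exact sterol element TCACCCCAC was found in 1, that of Hmgcs1, against 0.551 percent of all. The window is chr7:143829964-143830263 on the plus strand (RefSeq, GRCm38.p6), with capitals on both boxes.
Dhcr7: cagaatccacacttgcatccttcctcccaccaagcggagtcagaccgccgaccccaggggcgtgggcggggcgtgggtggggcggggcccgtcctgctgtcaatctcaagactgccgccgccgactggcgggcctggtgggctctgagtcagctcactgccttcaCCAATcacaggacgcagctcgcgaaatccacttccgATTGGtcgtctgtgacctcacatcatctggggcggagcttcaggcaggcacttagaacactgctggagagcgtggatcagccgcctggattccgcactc
Of 15 genes of the list with a box, 9 were called lower. A CCAAT box was about as frequent in the list of mitosis genes, with 75 percent of 36 promoters, where 1 of 25 genes with a box was called.

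Several genes of fatty acid synthesis fell too, with the largest changes in desaturation. Of 21 genes 9 fell and 0 rose (median −0.36), none of them on chromosome 8. Both leading members were desaturases that make oleate. Scd2 was at 2642 and 2450 in LD, against 11873 and 14044 in WT (log2 fold change −2.34, SE 0.113, adjusted p = 3.53e-05). Scd1 was at 1783 and 1689 in LD against 6128 and 7524 in WT (log2 fold change −1.97, SE 0.123, adjusted p = 0.000122). Fads2, which desaturates polyunsaturated fatty acids, was at 308 and 280 in LD against 822 and 795 in WT (log2 −1.46). The acyl-CoA ligase Acsl3 was at 816 and 908 in LD against 2108 and 2287 in WT (log2 −1.35). Elovl7, an elongase, and Mid1ip1, an activator of acetyl-CoA carboxylase, fell (−0.94 and −1.05). Fatty acid oxidation showed no common direction, with 3 of 25 genes higher and 3 lower. There the mitochondrial carnitine carrier Slc25a20 rose (1660 and 1580 in LD against 525 and 549 in WT, log2 1.59) and Cpt1b (10 and 4 in LD against 27 and 22 in WT) and Pdk4 (−0.99) fell. After leaving out any 1 library, 2 to 6 synthesis genes were called lower. Of these calls, Scd2, Scd1 and Slc25a20 held in all 6 fits with 1 library left out, and the others were lost in at least 1 (highest adjusted p = 0.21).

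Many glycolysis and low-oxygen response genes fell, while few of the tricarboxylic acid cycle were called. Of 24 glycolysis genes 12 fell and 0 rose (median −0.65), against 1 lower and 1 higher of 24 genes of the cycle. Ldha, lactate dehydrogenase, was at 2613 and 2204 in LD, against 7934 and 6815 in WT (log2 fold change −1.61, adjusted p = 0.000327). Slc16a3, the exporter of lactate, was at 44 and 40 in LD against 325 and 310 in WT (log2 fold change −2.89, adjusted p = 8.14e-05). Pfkl, the phosphofructokinase of liver type, was at 638 and 592 in LD against 1759 and 1501 in WT (log2 −1.40). Pgk1, phosphoglycerate kinase, was at 820 and 572 in LD against 1710 and 1405 in WT (log2 −1.18). The isoforms Aldoc (44 and 25 in LD against 158 and 122 in WT) and Eno2 (23 and 26 in LD against 63 and 65 in WT), typical of neurons, fell at lower levels. In all of these the locus deletion libraries were both below wild type. Of 34 further low-oxygen genes 15 fell and 2 rose, or 13 and 2 without chromosome 8. Beside Bhlhe40 they included Bnip3, a receptor for the removal of mitochondria, at 44 and 59 in LD against 314 and 348 in WT (log2 fold change −2.67, adjusted p = 0.000249). The secreted Stc2 was at 59 and 63 in LD against 202 and 177 in WT. Ankrd37, on chromosome 8 (8 and 13 in LD against 58 and 53 in WT), and P4ha2, a collagen prolyl hydroxylase (10 and 14 in LD against 38 and 49 in WT), fell at lower levels. Stc1 was listed at 0 and 0 in the locus deletion and at 8 and 7 in wild type (adjusted p = 0.0451), at least 2.53-fold lower when 3 reads per library stand in for 0. In the 6 fits that each lacked 1 library, 1 to 5 glycolysis and 0 to 4 low-oxygen genes were called lower, with medians of −0.69 to −0.44 and −0.70 to −0.55. The call held with each library left out in turn for Slc16a3, and was lost in at least 1 such fit for the other genes given here (highest adjusted p = 0.196).

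Promoters of 3 leading members are shown because each holds the core of the hypoxia element, ACGTG, which the HIF factors bind. On either strand it was found in 47.2 percent of 36 promoters of the glycolysis list (23 of 24 genes matched) and in 55.6 percent of 36 of the low-oxygen list (26 of 34), against 19.6 percent of all promoters. The windows are chr7:138909457-138909756 on the minus strand (Bnip3), chr7:46845554-46845853 on the plus strand (Ldha) and chr11:120948817-120949116 on the plus strand (Slc16a3), RefSeq, GRCm38.p6. Capitals mark the element, and where the letters CACGTG stand they hold it on both strands.
Bnip3: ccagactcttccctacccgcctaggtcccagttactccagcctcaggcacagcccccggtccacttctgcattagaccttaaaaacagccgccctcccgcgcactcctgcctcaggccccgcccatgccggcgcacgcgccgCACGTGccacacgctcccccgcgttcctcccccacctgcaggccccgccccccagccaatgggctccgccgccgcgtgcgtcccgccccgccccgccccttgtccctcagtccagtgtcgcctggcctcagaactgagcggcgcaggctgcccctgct
Ldha: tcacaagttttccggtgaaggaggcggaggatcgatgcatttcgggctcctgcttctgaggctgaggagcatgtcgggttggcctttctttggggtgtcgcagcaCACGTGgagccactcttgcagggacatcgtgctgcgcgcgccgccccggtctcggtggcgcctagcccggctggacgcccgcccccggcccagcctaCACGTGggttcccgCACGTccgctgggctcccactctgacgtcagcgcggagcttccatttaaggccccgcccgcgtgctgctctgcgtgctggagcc
Slc16a3: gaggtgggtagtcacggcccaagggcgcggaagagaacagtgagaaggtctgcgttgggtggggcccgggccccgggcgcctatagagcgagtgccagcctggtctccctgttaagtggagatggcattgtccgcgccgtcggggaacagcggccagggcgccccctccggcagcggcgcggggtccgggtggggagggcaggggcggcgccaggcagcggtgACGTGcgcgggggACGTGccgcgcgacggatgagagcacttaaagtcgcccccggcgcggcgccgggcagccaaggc
Both Bnip3 and Ldha hold the longer form CACGTG, and Slc16a3 holds the core at 2 places. Of 14 glycolysis genes with the core 7 were called, beside 12 of all 24 tested. Of 19 low-oxygen genes with it 9 were called, beside 15 lower and 2 higher of all 34 tested.

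Several genes of the integrated stress response, through which ATF4 raises amino acid supply, also fell. Of 32 members tested 13 fell and 1 rose (median −0.46), or 10 and 1 without chromosome 8. Some of them, Vldlr and Stc2 among them, stand in the lists above as well. Nupr1, a stress-induced chromatin protein, was at 124 and 147 in LD, against 421 and 337 in WT (log2 fold change −1.47, adjusted p = 0.00166). Phgdh, the entry enzyme of serine synthesis, was at 261 and 185 in LD against 673 and 423 in WT (log2 fold change −1.28, adjusted p = 0.0171). Ddit4, an inhibitor of mTOR signalling, was at 127 and 85 in LD against 395 and 221 in WT. Gdf15, a stress hormone on chromosome 8, was at 42 and 47 in LD against 87 and 134 in WT. The LD libraries lay below WT for each. Amino acid transporters moved both ways, with 6 of 24 lower and 2 higher (2 higher and 4 lower without chromosome 8). The glutamine carrier Slc1a5 was at 598 and 472 in LD against 1030 and 884 in WT (log2 −0.84). On chromosome 8 the leucine carrier Slc7a5 was at 1773 and 1530 in LD against 2531 and 2713 in WT (log2 −0.67) and its relative Slc7a6 at 278 and 235 in LD against 607 and 593 in WT (log2 −1.23). Slc7a3, a carrier of cationic amino acids, was at 1108 and 827 in LD against 515 and 532 in WT (log2 0.87). Slc7a8, a carrier of neutral ones, was at 117 and 125 in LD against 33 and 33 in WT (log2 1.84), the largest change of the list. Chaperones of the endoplasmic reticulum were near the background, with 0 higher and 2 lower of 28 (0 higher and 1 lower without chromosome 8). With any 1 library left out, 0 to 5 stress response genes were called lower. None of these calls held in all 6 fits with 1 library left out (highest adjusted p = 0.255).

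The promoter of Nupr1 is shown with its match to TGATGNAA, the letters searched for the element that ATF4 binds with its partners. It was found on either strand in 22.9 percent of 35 promoters of the list (28 of 32 genes matched), against 3.97 percent of all. The window is chr7:126625421-126625720 on the minus strand (RefSeq, GRCm38.p6), and capitals mark the match, which reads on the opposite strand.
Nupr1: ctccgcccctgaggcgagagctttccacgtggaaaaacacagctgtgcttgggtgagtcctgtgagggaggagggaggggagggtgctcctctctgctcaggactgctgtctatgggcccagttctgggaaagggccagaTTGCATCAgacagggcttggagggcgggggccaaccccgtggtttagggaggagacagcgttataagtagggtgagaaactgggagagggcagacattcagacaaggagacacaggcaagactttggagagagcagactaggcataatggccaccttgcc
Among called genes Chac1, Pck2 and Vldlr held it too. In the list of amino acid transporters 13.3 percent of 30 promoters held it, and 0 of the 3 genes with a match were called.

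Core ESC markers were present at similar summed levels, and single members of the network moved. Of 10 defining ESC markers 0 rose and 2 fell, and their summed values were 74827 and 71056 in the locus deletion libraries, against 69923 and 71120 in wild type. Pou5f1, the core factor OCT4, was at 4992 and 5904 in LD, against 4476 and 3671 in WT and not called (adjusted p = 0.0796). Nanog was at 11651 and 10326 in LD against 9727 and 11197 in WT (adjusted p = 0.79). Fgf4, a growth factor, fell to 6027 and 5422 in LD against 8317 and 8517 in WT (log2 −0.56). The Nodal coreceptor gene Tdgf1 fell to 4074 and 4108 in LD against 5321 and 5810 in WT (log2 −0.44). In the wider list of naive and core genes 9 of 33 rose and 7 fell (9 higher and 6 lower without chromosome 8). Dppa3, a naive marker that guards against DNA methylation, was at 692 and 764 in LD, against 166 and 95 in WT (log2 fold change 2.52, adjusted p = 0.00169). Utf1, a chromatin factor of ESCs, was at 473 and 460 in LD against 156 and 152 in WT (log2 fold change 1.59, adjusted p = 0.000341). Nr0b1, an orphan receptor, was at 1502 and 1482 in LD against 496 and 554 in WT (log2 fold change 1.51, adjusted p = 0.000256). Gbx2 (1.17) and Klf5 (1.14) rose as well, and Lin28b fell (81 and 93 in LD against 204 and 189 in WT, log2 −1.17). Genes of the later, formative and primed epiblast rose in 9 of 21 cases and fell in 3, the rising including Lef1, Myc and Cdh2. The zinc finger factor Zic2 was at 851 and 766 in LD against 325 and 324 in WT (log2 1.31). Foxd3, a forkhead factor, was at 400 and 377 in LD against 204 and 166 in WT (log2 1.07). Naive and later genes thus both held members that rose. After leaving out any 1 library, 1 to 4 naive and 0 to 5 later genes were called higher. Nr0b1 kept the call with each library left out in turn, and the other calls given here did not (highest adjusted p = 0.146).

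Several WNT targets rose, together with 2 ligand genes. Of 21 targets 8 rose and 2 fell, with a median log2 fold change near 0. Lef1, which is both a target and a nuclear effector of the pathway, was at 146 and 185 in LD, against 19 and 21 in WT (log2 fold change 2.98, adjusted p = 0.000327). The feedback repressor Sp5 was at 90 and 83 in LD against 21 and 22 in WT (log2 fold change 1.96, adjusted p = 0.00116). Myc, a driver of growth, was at 50 and 61 in LD against 22 and 16 in WT (log2 fold change 1.51, adjusted p = 0.00736). Bmp4, a ligand of the primitive streak, was at 112 and 145 in LD against 32 and 29 in WT (log2 fold change 2.03, adjusted p = 0.00108). Cdx2 rose at a low level (13 and 13 in LD against 1 and 3 in WT), and Nkx1-2 fell (61 and 41 in LD against 135 and 120 in WT, log2 −1.33). Of 40 genes of ligands, receptors and inhibitors 7 rose and 4 fell (7 higher and 3 lower without chromosome 8). The median of these 40 was −0.25. Wnt7b, a ligand, was at 71 and 53 in LD, against 2 and 4 in WT (log2 fold change 4.01, adjusted p = 0.00136), and Wnt5b, another, at 38 and 32 in LD against 13 and 16 in WT. Porcn, which acylates WNT ligands for secretion, was at 103 and 75 in LD against 27 and 10 in WT (log2 2.34). The secreted inhibitor Sfrp1, on chromosome 8, fell to 1827 and 2183 in LD against 3606 and 5086 in WT (log2 −1.10). Sfrp2, a further secreted inhibitor, fell to 14 and 24 in LD against 74 and 57 in WT (log2 −1.77). In the 6 fits that each lacked 1 library, 0 to 3 targets were called higher. None of these calls held in all 6 fits with 1 library left out (highest adjusted p = 0.17).

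Feedback genes of FGF and ERK signalling, which read out the activity of that pathway, rose more often than they fell. Of 26 members 7 rose and 3 fell (7 higher and 2 lower without chromosome 8), with a median of 0.08. Spry4, an inhibitor of receptor signalling, was at 191 and 202 in LD, against 22 and 19 in WT (log2 fold change 3.20, adjusted p = 5.21e-05), below the KO at 434 and 415 (adjusted p = 0.00883). Dusp6, a phosphatase of ERK, was at 175 and 131 in LD against 33 and 23 in WT (log2 fold change 2.42, adjusted p = 0.00089), and Dusp5, a nuclear relative, at 135 and 139 in LD against 47 and 55 in WT (log2 1.41). The ETS factor Etv1 was at 225 and 230 in LD against 125 and 151 in WT (log2 0.72). Ier3, an early response gene that also belongs to the ternary complex factor targets of SRF, fell (12 and 13 in LD against 53 and 47 in WT, log2 −1.92). That second SRF list was divided, with 4 of 26 rising and 3 falling. With any 1 library left out, 1 to 3 feedback genes were called higher. The call held with each library left out in turn for Spry4, and was lost in at least 1 such fit for the other genes given here (highest adjusted p = 0.131).

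Genes of the Nodal and BMP pathways moved both ways. Lefty1 and Lefty2, inhibitors and targets of Nodal, fell. Lefty1 had 13 and 3 in LD, against 108 and 99 in WT (log2 fold change −3.80, adjusted p = 0.00331). Lefty2 had 473 and 514 in LD against 1574 and 1845 in WT (log2 fold change −1.79, adjusted p = 0.000157). On the BMP side Id3, a target, was at 37 and 35 in LD, against 7 and 9 in WT (log2 fold change 2.05, adjusted p = 0.00304). Among ligand genes Bmp4 and Bmp8a rose, Bmp8a to 42 and 41 in LD against 16 and 12 in WT (log2 1.51). Bmp7 fell to 16 and 32 in LD against 80 and 86 in WT (log2 −1.82). Over the whole list 6 of 38 rose and 7 fell. In the hedgehog list 4 of 20 fell and 1 rose, Evc and Evc2 among the falling. The signal transducer Smo was at 238 and 232 in LD against 497 and 537 in WT (log2 fold change −1.13, adjusted p = 0.00147), and the ciliary kinesin Kif7 at 73 and 68 in LD against 160 and 111 in WT. Gli3, a pathway repressor, rose (0.58). In the Notch list 4 of 23 rose and 4 fell, and its glycosyltransferases moved in opposite directions. Mfng fell to 6 and 8 in LD against 45 and 39 in WT (log2 −2.43). Rfng rose to 273 and 183 in LD against 143 and 110 in WT (log2 0.83). In the retinoic acid list Stra8, a target that starts meiosis, was at 1 and 3 in LD, against 78 and 73 in WT (log2 fold change −4.76, adjusted p = 0.000562). Also there, the receptor gene Rarg rose (987 and 975 in LD against 497 and 450 in WT, log2 1.05) and Rara fell (354 and 327 in LD against 541 and 537 in WT, log2 −0.66). Lefty2, Evc and Evc2 kept the call with each library left out in turn, and the other calls given here did not (highest adjusted p = 0.267).

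Several genes of the 2-cell-like state fell, and those of later lineages moved both ways. The 2-cell-like list held 9 lower and 0 higher of 21 genes (median −1.76), and 0 to 4 were called lower with 1 library left out. Zscan4d, a zinc finger gene that marks the state, had 4 and 1 in LD, 138 and 137 in KO and 41 and 45 in WT (LD minus KO, log2 −5.45, adjusted p = 0.00067). These genes have near-identical copies. Summed over 5 markers the state stood at 13 and 9 in the locus deletion libraries, 263 and 281 in the KO libraries, and 72 and 89 in wild type. In bulk RNA, fewer cells of such a state and less RNA per cell cannot be told apart. Germline genes rose in 7 of 44 cases and fell in 7. Dazl, an RNA-binding protein of germ cells, was at 1444 and 1305 in LD, against 385 and 418 in WT (log2 fold change 1.77, adjusted p = 0.000174). Piwil1, a PIWI protein, was at 44 and 47 in LD against 16 and 9 in WT. Sohlh2, a factor of early germ cells, was at 94 and 93 in LD against 361 and 289 in WT (log2 fold change −1.78, adjusted p = 0.00079). Aire, a regulator of gene expression in the thymus, fell to 10 and 3 in LD against 73 and 116 in WT. Trophoblast genes rose in 5 of 27 cases, Rhox6 and Rhox9 among them, and fell in 7, among them the homeobox genes Dlx3 (2 and 5 in LD against 25 and 28 in WT) and Esx1 (3 and 7 in LD against 36 and 34 in WT). Of the neural genes Pax6, a factor of the neural plate, rose (48 and 53 in LD against 7 and 5 in WT, log2 fold change 2.89, adjusted p = 0.00468). Gap43, a protein of growing axons, fell (2 and 0 in LD against 40 and 27 in WT, log2 fold change −4.29, adjusted p = 0.003). Of the primitive endoderm genes Sox7 was at 28 and 17 in LD and listed at 0 in both WT libraries (adjusted p = 0.00275), at least 7.25-fold higher with 3 reads per library in place of 0. Gata4, an endoderm factor, fell (10 and 10 in LD against 34 and 28 in WT). Among all 17 SOX genes 5 rose and 2 fell (5 higher and 1 lower without chromosome 8), led after Sox7 by Sox21 (409 and 531 in LD against 95 and 146 in WT, log2 1.98) and Sox4, which fell (30 and 24 in LD against 87 and 131 in WT). In the 6 fits that each lacked 1 library, 0 to 3 SOX genes were called higher. Of these calls, Dazl, Rhox6 and Rhox9 held in all 6 fits with 1 library left out, and the others were lost in at least 1 (highest adjusted p = 0.127).

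**Figure D5:**
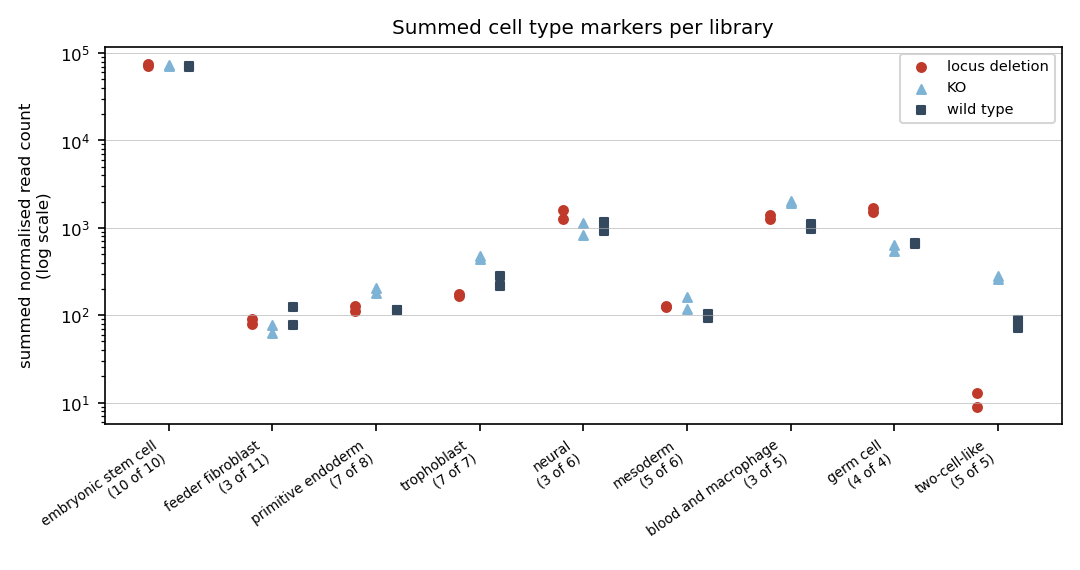
Summed normalised read count (y axis, log scale) of fixed marker genes of 9 cell types per library, with the number of markers tested of those listed under each name. Circles are locus deletion, triangles KO and squares wild-type libraries. The ESC sum lies between 69923 and 74827 in all libraries, the germ cell sum, most of it Dazl, is higher in the locus deletion (1670 and 1508 in LD against 670 and 647 in WT), and the 2-cell-like sum is lowest there (13 and 9 in LD against 72 and 89 in WT).

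Marker sums of cells that a culture could also hold rested in part on single genes. Of 11 feeder fibroblast markers 3 were tested, with summed values of 79 and 91 in LD against 78 and 125 in WT. Among them Thy1 was called lower (7 and 7 in LD against 25 and 26 in WT), and the fibroblast collagen Col1a1 was at 11 and 10 in LD against 11 and 9 in WT. Of 5 blood and macrophage markers 3 were tested, at 1390 and 1276 in LD against 1103 and 970 in WT, most of it Laptm5, a lysosomal membrane protein that was not called (1235 and 1123 in LD against 1018 and 914 in WT). Of the others Cd68, a lysosomal protein of macrophages, rose (142 and 150 in LD against 79 and 53 in WT, log2 1.16). Mesoderm markers summed to 129 and 125 in LD against 102 and 94 in WT, trophoblast markers to 166 and 174 in LD against 216 and 278 in WT, and neural markers, 3 of 6 tested, to 1257 and 1590 in LD against 932 and 1156 in WT. The neural sum was mostly Tubb3, a tubulin of neurons that was not called (1132 and 1435 in LD against 747 and 926 in WT). The calls of Thy1 and Cd68 were lost in every fit with 1 library left out. The part of these cells in the changes above was not tested.

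Imprinted genes, expressed from a single parental copy, changed in 6 cases upwards and 13 downwards of 56 (6 higher and 12 lower without chromosome 8). The locus of Dlk1 and Dio3 on chromosome 12 split: Dio3 rose, as given above, while the noncoding Rian fell to 2291 and 2497 in LD, against 7318 and 9352 in WT (log2 fold change −1.79, adjusted p = 0.000249). Its neighbours Meg3 and Mirg, also noncoding and chosen after their values were seen, fell as well. Meg3 was at 1454 and 1568 in LD against 3610 and 4404 in WT (log2 −1.40). Mirg was at 185 and 181 in LD against 396 and 354 in WT (log2 −1.03). On distal chromosome 7 the noncoding H19 was at 9 and 23 in LD, against 200 and 157 in WT (log2 fold change −3.52, adjusted p = 0.00102), in contrast to 2675 and 2241 in KO ESCs (LD minus KO, log2 −7.30, adjusted p = 0.000107). Its neighbour Igf2, a fetal growth factor, was at 7 and 8 in LD against 18 and 39 in WT (log2 fold change −1.70, adjusted p = 0.027). Phlda2, which limits placental growth, fell to 1 and 0 in LD against 8 and 9 in WT. Peg12 also fell (35 and 48 in LD against 158 and 125 in WT, log2 −1.75). After leaving out any 1 library, 1 to 5 imprinted genes were called lower. Rian and Dio3 kept the call with each library left out in turn, and the other calls given here did not (highest adjusted p = 0.189).

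Polycomb genes and the H3K4 methylation list held rises and no falls. Of 40 Polycomb genes 9 rose and 0 fell (median 0.23). Cbx8, a chromobox subunit of PRC1, was at 122 and 121 in LD against 64 and 46 in WT (log2 1.15). The PRC1 corepressor Bcor was at 1439 and 1419 in LD against 856 and 865 in WT (log2 0.73). Of the PRC2 cofactors, Aebp2 was at 5423 and 5273 in LD against 3105 and 3438 in WT (log2 0.71) and Jarid2 at 7614 and 8648 in LD against 5373 and 4586 in WT (log2 0.71). Of these rises only that of Cbx8 passed 2-fold. In the list of histone H3K4 methylation 7 of 22 rose and 0 fell. Setd1b, a methyltransferase of the list, was at 1132 and 1362 in LD against 606 and 702 in WT (log2 0.93). The demethylase gene Kdm6a was at 1864 and 1733 in LD against 1210 and 1362 in WT (log2 0.49). The enzymes that set new DNA methylation moved apart. Dnmt3a was at 703 and 793 in LD, against 1366 and 1537 in WT (log2 fold change −0.96, adjusted p = 0.00267). Dnmt3b was at 3562 and 3932 in LD, against 2002 and 1994 in WT (log2 fold change 0.91, adjusted p = 0.00133). In that list 5 of 24 rose and 2 fell. The imprint protector Zfp57 was at 8137 and 8516 in LD against 5160 and 4692 in WT (log2 0.76). The dioxygenase Tet2, which removes methylation, was at 11096 and 12392 in LD against 7465 and 7712 in WT (log2 0.63). Among remodellers the ATPases Smarca2 and Smarca1 also diverged. Smarca2 rose to 408 and 505 in LD against 154 and 131 in WT (log2 1.67). Smarca1 fell to 66 and 68 in LD against 259 and 230 in WT (log2 −1.85). In the 6 fits that each lacked 1 library, 0 to 2 Polycomb genes and none of the H3K4 list were called higher. None of these calls held in all 6 fits with 1 library left out (highest adjusted p = 0.149).

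Genes of mitosis were almost all uncalled, while some replication genes fell, several of them on chromosome 8. Of 44 replication genes 9 fell and 1 rose (20.5 percent lower, beside 8.24 percent of protein-coding genes). Without chromosome 8, 5 of 38 fell and 1 rose, with a median of −0.12. At an adjusted p below 0.01 in the limma fit, 0 replication genes were lower. Of 40 genes of mitosis 1 fell and 0 rose. Rrm2, a subunit of the enzyme that makes deoxynucleotides, was at 2912 and 2239 in LD, against 4236 and 3702 in WT (log2 fold change −0.63, adjusted p = 0.0245). Ccne2, cyclin E2, was at 452 and 458 in LD against 761 and 658 in WT (log2 −0.64). The licensing factor Cdt1, on chromosome 8, was at 1284 and 1043 in LD against 1925 and 1718 in WT (log2 −0.65). The clamp loader gene Rfc5 rose (2617 and 2469 in LD against 1544 and 1561 in WT, log2 0.71). Of 34 genes of recombination repair 5 fell, among them Rad51c (254 and 224 in LD against 422 and 420 in WT, log2 −0.82). Fancm, a translocase of the Fanconi pathway, rose (6358 and 6231 in LD against 3505 and 3355 in WT, log2 0.88). Replication-dependent histones, with near-identical copies, fell in 4 of 57 cases, and the largest falls were in the testis-type genes Hist1h2ba (3 and 2 in LD against 40 and 37 in WT) and Hist1h1t (14 and 16 in LD against 47 and 51 in WT). With any 1 library left out, none of the S phase genes was called lower. Leaving out 1 library in turn ended each of these calls in at least 1 fit (highest adjusted p = 0.199).

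Among stress and defence programmes, 6 of 29 p53 targets rose and 2 fell. Gadd45a, a stress sensor, was at 162 and 238 in LD against 61 and 45 in WT (log2 1.89). Perp, a membrane protein of desmosomes, was at 261 and 304 in LD against 98 and 102 in WT (log2 1.49), and the kinase Plk3 at 307 and 292 in LD against 144 and 136 in WT (log2 1.09). Cdkn1a, the cell cycle inhibitor that is the best known target, was at 611 and 561 in LD, against 595 and 637 in WT and was not called (adjusted p = 0.796). Of 18 glutathione transferases 5 rose and 1 fell, or 0 to 1 higher with 1 library left out. Gsto1 was at 1749 and 1394 in LD, against 462 and 436 in WT (log2 fold change 1.80, adjusted p = 0.000249). In the NRF2 and glutathione list 4 of 26 rose, led by Gpx1, a glutathione peroxidase (4611 and 3546 in LD against 1479 and 1199 in WT, log2 fold change 1.60, adjusted p = 0.000922). Of 20 interferon response genes 3 rose and 3 fell (3 higher and 2 lower without chromosome 8). The RNA sensor Ddx58 was at 502 and 562 in LD against 148 and 150 in WT (log2 fold change 1.83, adjusted p = 0.000152). B2m, the light chain of class I antigens, was at 79 and 78 in LD against 181 and 186 in WT (log2 fold change −1.21, adjusted p = 0.00314), beside the fall of H2-K1. Of 38 lysosomal and autophagy genes 7 rose and 4 fell (7 higher and 3 lower without chromosome 8). The autophagy kinase Ulk1 rose to 6229 and 5411 in LD against 2785 and 2862 in WT (log2 1.04). Tfe3, a master factor of lysosomes, rose to 853 and 877 in LD against 470 and 414 in WT (log2 0.97). Map1lc3b, an autophagosome protein encoded on chromosome 8, fell to 264 and 266 in LD against 410 and 449 in WT (log2 −0.69). Ddx58 kept the call with each library left out in turn, and the other calls given here did not (highest adjusted p = 0.114).

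Families of basic functions showed few calls. Of 85 cytoplasmic ribosomal protein genes 0 rose and 4 fell (0 higher and 3 lower without chromosome 8), of 77 mitochondrial ones 2 rose and 0 fell, and of 36 subunits of respiratory complex I and 31 of the proteasome 0 were called. The cytoplasmic members that fell were Rpl13, Rpl5 and the variants Rpl39l and Rpl10l, which are typical of testis. Rpl39l was at 131 and 119 in LD against 253 and 265 in WT and Rpl10l at 279 and 284 in LD against 501 and 435 in WT. Rpl13, on chromosome 8, was at 3177 and 3655 in LD against 6293 and 6077 in WT and Rpl5 at 8252 and 8312 in LD against 10690 and 11549 in WT. Of 47 mRNA decay factors, nonsense-mediated decay included, 5 fell and 1 rose, and without the 7 members on chromosome 8 the number that fell was 1. Large families had shares near those of all protein-coding genes: of 368 zinc finger genes 25 rose and 25 fell (25 higher and 17 lower without chromosome 8), or 6.79 and 6.79 percent, and of 296 solute carriers 25 rose and 24 fell (25 higher and 17 lower without chromosome 8), or 8.45 and 8.11 percent. None of these calls held in all 6 fits with 1 library left out (highest adjusted p = 0.125).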

How the data were processed

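RNA was extracted with a miRNeasy micro kit and on-column DNase, and 1 µg of total RNA entered a SMARTer stranded total RNA kit, per the labels' protocols. The submitters' processing notes name STAR 2.5.3a, featureCounts 1.6.0, DESeq2 1.14.1 and mm10, the GRCm38 build, without saying what each did. The strand setting of the counting is not given in the sources used here. The authors deposited a table whose values are treated as a score: whole numbers with near equal sums per library, read here as normalised read counts rounded by the authors, so a test on raw counts was not used although a quasi-likelihood test had been planned for that case.

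Genes were matched to GENCODE M21 by identifier (23045 of 23083). Values of all 6 ESC libraries were fitted as group means with limma 3.58.1 (R 4.3.3) on log2(value + 1), with a mean-variance trend, for 23054 genes with a mean of at least 1; adjusted p-values are Benjamini-Hochberg over all of these, two-sided. With 3 residual degrees of freedom, the spread is shared across genes. The value of 1 read was estimated from the low values of each library (0.967 and 1.01 in LD, 1.30 and 0.715 in KO, 1.21 and 0.856 in WT), which gives the read totals. A fold against a group at 0 is a bound with 3 reads per library in place of 0, for counting error only. The script was tested on simulated data.

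The members and gene lists were chosen with earlier results of these data known. Genes named are Actb, the 15 largest rises and falls with a mean of at least 100 in the higher group, up to 6 called members per list by size of change, members whose lack of a call is stated, neighbours of Actb, members of runs and cell type markers; some genes that this rule would name are not reported here. Alternatives were another pseudocount, filter, scaling, sample set, threshold, a replicate block, no chromosome 8, and each library left out.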

Additional observations from a re-analysis of the deposited data

How the results depend on the processing

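Of the counts of genes higher and lower in locus deletion and of called members of the 18 lists (1196, 1384 and 184), those with a pseudocount of 5 or 0.5, a mean of at least 10, no filter, both other scalings and without chromosome 8 stayed within 1.5 times. The pseudocount of 0.5 was chosen after seeing the data. Fitting only the 4 libraries compared gave 247, 253 and 75, with fewer residual degrees of freedom. A threshold of 0.01 gave 431, 488 and 110. Leaving out 1 library in turn gave 29 to 256 higher, 20 to 263 lower and 20 to 76 list members, with 4604 to 5375 genes at an unadjusted p under 0.05 against 6017 with all libraries. The lone library of a group is there assumed to vary like the others. The fold change of Actb lay between −3.95 and −3.86 in those fits. Most of the 222 called genes named in the text lost the call in at least 1 of those fits. Of the 222, 0 changed sign under any alternative. Only the other scalings could have changed a sign. Both groups stood apart for every called gene, so another pseudocount, filter or sample set, the block or a left-out library could not. Of 9 named genes that were not called, 2 changed sign, Nanog (−0.03 to 0.17 with 1 library left out) and Col1a1 (−0.06 to 0.20). Rescaling without genes over 1 percent of a library moved the median of all genes to −0.03 and the share of higher calls to 39.9 percent, against 46.4. Same-numbered libraries share only a number in the labels. Their deviations from the group means correlated over 11369 genes at 0.349 between locus deletion and wild type, 0.492 between locus deletion and KO and 0.678 between KO and wild type, and a fit with a replicate block called 1784 higher, 1943 lower and 206 list members. Under the block, 14 of 36 actin turnover genes rose and 3 fell (13 and 0 without it), 15 of 40 Polycomb genes rose (9), 11 of 57 replication-dependent histones fell (4), 8 of 26 NRF2 and glutathione genes rose (4), 8 of 24 DNA methylation genes rose (5) and 14 of 33 naive and core pluripotency genes rose (9). Depth limits low genes: 1.74 percent of genes with a mean of 1 to 10 were called, against 18.1 percent of those with 100 to 1000.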
